A study of Mus musculus with 10 samples.

Results

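The comparison described here set mouse embryonic fibroblasts of a conditional Dicer knockout line (CDKO) exposed to 5 µM 4-hydroxytamoxifen (OHT) against cells of the same line exposed to 1 µM, both for 4 days. It rests on 4 of the series' 10 arrays, 2 per dose. Of 45037 probe sets other than controls, 19563 had a mean of at least 4 on the log2 scale in either dose group and were tested. They stood for 10321 of the 18193 genes named on the array, when each gene was taken by its brightest probe set. The difference of the group means, 5 µM minus 1 µM, was the measure throughout.

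The series also holds 2 untreated CDKO arrays, 2 untreated wild-type (WT) arrays and 2 WT arrays exposed to 5 µM OHT for 4 days. All cells were grown in DMEM with 10% FBS. RNA was hybridised to Affymetrix arrays and deposited as log2 values after GCRMA, a background correction and normalization of probe intensities. The labels do not say whether the 2 replicates of a group were separate cultures, so a p-value measures only the spread between these arrays, which may be technical. No WT array was exposed to 1 µM, so the lower dose has no WT counterpart. The labels name no Cre driver, do not say whether the line was a single clone, and give no vehicle for the untreated cells.

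OHT is the active metabolite of tamoxifen and a ligand of the estrogen receptor. Many conditional knockout lines carry a Cre recombinase joined to a mutated estrogen receptor domain, and the drug then lets Cre enter the nucleus and remove the floxed gene. Dicer cuts precursor hairpins into mature microRNAs. Embryonic fibroblasts are connective tissue cells that secrete collagens and other matrix proteins, and such primary cultures can also carry macrophages from the embryo.

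Dicer1 was measured by 2 probe sets whose place relative to the deleted part is not known here, so neither checks the deletion. The first read 5.40 and 8.30 in the 1 µM arrays and 5.83 and 5.78 in the 5 µM arrays, a difference of -1.04 ± 0.97 (SE, n = 2 per dose, limma adjusted p = 0.804). The second read 6.10 and 6.55 at 1 µM and 5.90 and 5.49 at 5 µM, a difference of -0.64 ± 0.34 (limma adjusted p = 0.779). The high value of the first probe set came from 1 µM replicate 2 alone, and the doses overlapped there. Both probe sets were also lower in WT at 5 µM. The first read 8.97 and 9.10 in untreated WT and 7.64 and 7.19 at 5 µM. The second read 7.31 and 7.16 in untreated WT and 5.90 and 5.94 at 5 µM. The other 13 tested genes of microRNA processing and silencing included Ago3, an Argonaute protein, at 5.92 and 6.42 against 7.25 and 7.72. Ago3 ran against most of this list of 14, of which 11 were negative and 3 positive (48% of all genes positive). The list's median was -0.20, and -0.40 to -0.04 with 1 array left out.

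All 13 fibroblast markers reached the level filter, so the label fitted them by level. Between the doses 11 of the 13 were negative, with a median of -0.86. It was -1.67 for 5 µM replicate 1 against the 1 µM mean and -0.11 for 5 µM replicate 2. Vim, the intermediate filament vimentin, lay between 15.2 and 15.5 in the 4 arrays, and Prrx1, a mesenchymal transcription factor, between 11.6 and 11.9. Macrophage markers were present too: Csf1r, the receptor for macrophage colony-stimulating factor, read 6.82 and 7.89 at 1 µM and 9.65 and 7.36 at 5 µM. Only 3 of 10 endothelial and 3 of 9 epithelial markers reached the level filter.

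Of the 4 arrays, 2 stood apart from the rest. The mean of the spike-in controls was 11.0 in 5 µM replicate 1 and between 9.65 and 9.93 in the other 3. The 18S ribosomal control read 10.2 in 1 µM replicate 2 against 5.21 to 5.83 in the other 3, and in that array the Gapdh 3′ probe set exceeded the 5′ one by 1.58, against -0.31 to -0.10 elsewhere. Over the 19563 tested probe sets the 1 µM replicates correlated at 0.922 and the 5 µM replicates at 0.953. By the same measure 1 µM replicate 1 correlated at 0.992 with untreated CDKO replicate 2. The array closest to 1 µM replicate 2 was untreated WT replicate 1, at 0.952. List medians are therefore also given with arrays left out.

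No probe set passed the threshold of 0.05 on the adjusted p in limma fitted to the 6 CDKO arrays, in either direction (0% higher and 0% lower of 19563). The smallest adjusted p was 0.307, and 1194 probe sets (6.1%) had an unadjusted p under 0.05. The same fit called 0 probe sets between 1 µM and untreated cells (0% higher, 0% lower; 189, or 0.966%, unadjusted). It also called 0 between 5 µM and untreated cells (0% higher, 0% lower; 832, or 4.25%, unadjusted). When all 10 arrays shared 1 estimate of the spread, 36 probe sets passed between the doses, 34 higher and 2 lower at 5 µM. With the 2 lines weighted by their own spread, 2 of these calls were left, Mmp3 and Slc7a11. The median replicate SD of a probe set was 0.30 to 0.36 in the CDKO groups and 0.07 to 0.10 in WT, so the 10-array estimate of the spread was lowered by the WT arrays. The values below are descriptions of 4 arrays, and none of the genes in them rose or fell by the 6-array test.

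Of the 10321 genes, 1784 (17.3%) had both 5 µM arrays above both 1 µM arrays and 1615 (15.6%) had both below. A difference of at least 1 log2 unit, a 2-fold change, was seen for 465 genes upward (4.51%) and 516 downward (5%). The directions diverged when the gap was measured, which is the distance between the nearest arrays of the 2 doses. A gap of at least 1 was found for 118 genes higher at 5 µM (1.14%) and for 10 genes lower (0.0969%). Between 1 µM and untreated cells 1195 genes did not overlap upward (11.6%) and 1142 downward (11.1%), and only 2 (0.0194%) and 7 (0.0678%) had such a gap. The gaps at 5 µM were thus mostly upward, and few matched them at 1 µM against untreated cells; these comparisons share the 1 µM arrays. Leaving out an array can only widen gaps: 195 higher and 29 lower were counted without 5 µM replicate 1, and 333 and 27 without 1 µM replicate 2. Of the 118 genes, 36 averaged under 4 at 1 µM and entered the test through their 5 µM arrays, and 107 also lay above both untreated arrays.

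**Figure D1:**
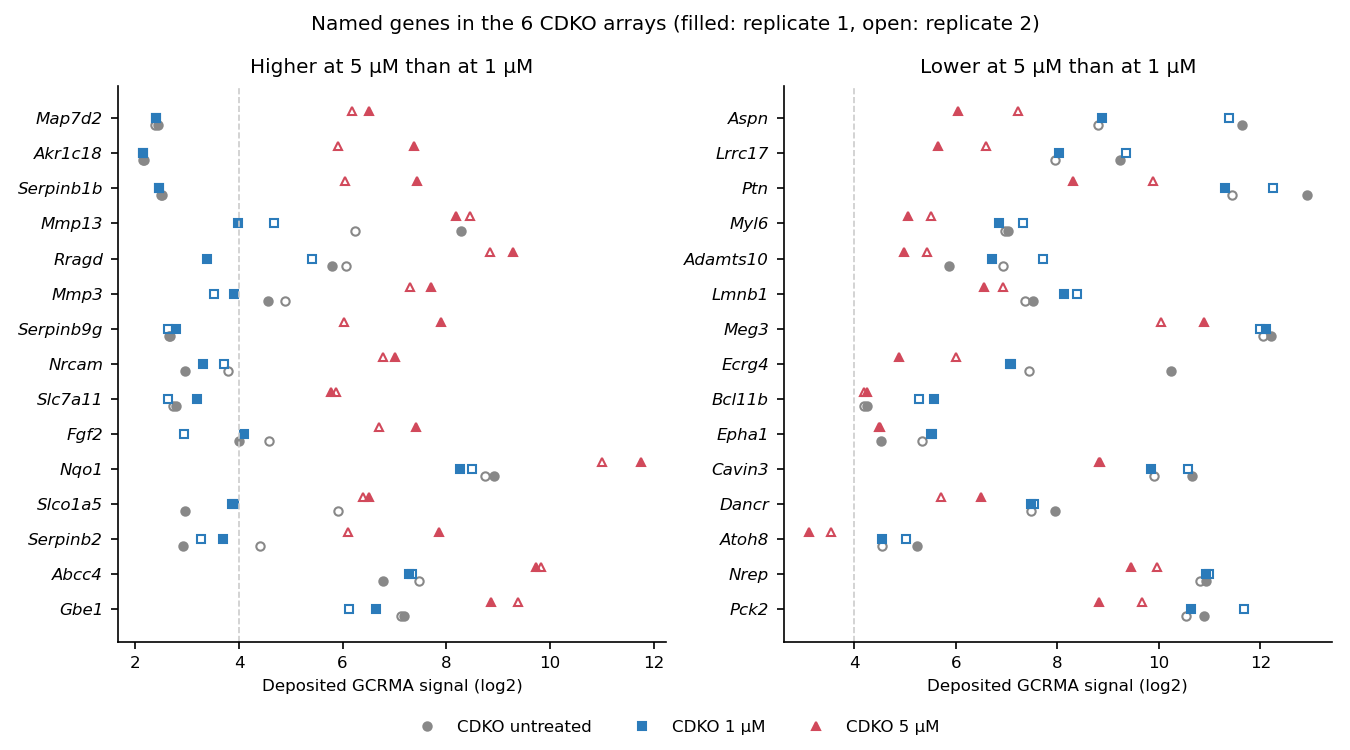
Deposited log2 signal of the 15 genes with the largest gap in each direction, with 1 point per array: untreated CDKO (grey circles), 1 µM (blue squares) and 5 µM (red triangles). The dashed line marks the level filter of 4; 10 of the 15 genes on the left averaged below it at 1 µM, and the blue and red points of no gene overlap.

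The largest gaps upward belonged to genes of varied roles, as the plot of named genes by array shows. Map7d2, a microtubule-associated protein, read 2.39 in both 1 µM arrays and 6.50 and 6.18 in the 5 µM arrays, a difference of 3.95 ± 0.28 (limma adjusted p = 0.307). Akr1c18, a steroid dehydrogenase that inactivates progesterone, read 2.15 and 2.14 against 7.38 and 5.91. Both genes were as low in untreated CDKO arrays as at 1 µM, and of the CDKO arrays only those at 5 µM stood above the level filter. The array files give no detection call, so whether the low values were above background was not tested.

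The clade B serine protease inhibitors, which block proteases inside and outside the cell, held 3 of the 15. Serpinb1b read 2.46 and 2.45 at 1 µM against 7.43 and 6.04 at 5 µM. Serpinb9g read 2.79 and 2.62 against 7.89 and 6.03, and Serpinb2, the plasminogen activator inhibitor type 2, read 3.70 and 3.27 against 7.86 and 6.11. In all 3 the 5 µM replicate 1 was the higher array by over 1 unit. The other 6 tested members ranged from -0.55 to 0.78, and the median of the 9 was 0.61, or 0.08 without 5 µM replicate 1 and 0.28 without 1 µM replicate 2.

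Matrix metalloproteinases, which cut collagen and other matrix proteins, divided. Mmp3, stromelysin-1, read 3.90 and 3.51 at 1 µM against 7.71 and 7.29 at 5 µM, a difference of 3.79 ± 0.33 (limma adjusted p = 0.307). Mmp13, collagenase-3, read 3.98 and 4.67 against 8.20 and 8.46. Its untreated arrays read 8.28 and 6.23, so its 5 µM arrays overlapped the untreated cells and its 1 µM arrays lay below both groups. Mmp10 read 8.19 and 5.66 against 10.05 and 10.67. In the other direction Mmp14, a membrane-bound collagenase activator, read 12.69 and 13.68 against 10.81 and 12.69, and there the 5 µM replicates differed by more than 1 unit. Of the 13 tested members and inhibitors, 6 did not overlap upward (17.3% of all genes) and 2 downward (15.6%).

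Genes of nutrient, growth factor, adhesion and transport biology were also among the upper 15. Rragd, a Rag GTPase that relays amino acid supply to mTORC1 at the lysosome, read 3.39 and 5.42 at 1 µM against 9.28 and 8.85 at 5 µM. Its difference of 4.66 ± 0.68 was the highest of the 15 (25.3-fold; limma adjusted p = 0.522). Gbe1, the glycogen branching enzyme, read 6.64 and 6.12 against 8.86 and 9.38. Fgf2, a fibroblast growth factor, read 4.10 and 2.93 against 7.42 and 6.70. Nrcam, a cell adhesion protein, read 3.31 and 3.71 against 7.01 and 6.78. Slco1a5, an organic anion uptake transporter, read 3.87 and 3.91 against 6.50 and 6.40, but its untreated arrays were split at 2.96 and 5.90. The remaining 3 of the 15, Nqo1, Slc7a11 and Abcc4, belong to the antioxidant list below.

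The 15 genes with the largest gaps downward were led by secreted proteins. Aspn, the matrix proteoglycan asporin, read 8.87 and 11.39 at 1 µM against 6.05 and 7.22 at 5 µM, a difference of -3.50 ± 1.22 (limma adjusted p = 0.779). Ptn, the growth factor pleiotrophin, read 11.31 and 12.26 against 8.31 and 9.89. Lrrc17, a secreted leucine-rich repeat protein, read 8.03 and 9.35 against 5.65 and 6.59. The replicates of a dose were also far apart in these 3, and the doses did not overlap.

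Other genes of the lower 15 were noncoding RNAs, structural proteins and enzymes. Meg3, an imprinted long noncoding RNA measured by 8 probe sets that all had the same sign, read 12.11 and 11.99 against 10.88 and 10.05. Lmnb1, the nuclear lamina protein lamin B1, read 8.14 and 8.39 against 6.55 and 6.93. Cavin3, a coat protein of caveolae, read 9.85 and 10.58 against 8.85 and 8.82. Dancr, a long noncoding RNA, read 7.49 and 7.53 against 6.49 and 5.71. Pck2, the mitochondrial enzyme that makes phosphoenolpyruvate, read 10.64 and 11.67 against 8.82 and 9.67. Myl6, Adamts10, Ecrg4, Bcl11b, Epha1, Atoh8 and Nrep completed the 15, with differences from -2.02 to -1.03. Bcl11b and Epha1 were set apart by their 1 µM arrays. Bcl11b, a transcription factor, read 5.56 and 5.28 at 1 µM, 4.24 and 4.20 at 5 µM, and 4.24 and 4.18 untreated. Of the 30 genes 12, all from the upper 15, passed with all 10 arrays.

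Cholesterol synthesis genes were higher at 5 µM along almost the whole pathway. Cells make cholesterol from acetyl-CoA through mevalonate, farnesyl units, squalene and lanosterol. When sterols are scarce, the SREBP transcription factors, working with the CCAAT-binding factor NF-Y, raise transcription of the enzymes. All 18 tested enzymes of the pathway had a positive difference (48% of all genes), 16 did not overlap upward (17.3% of all genes), and 12 differed by at least 1 (4.51% of all genes). The median over the 18 was 1.24, against -0.02 over all 10321 genes. None passed the 6-array test, and Idi1 and Tm7sf2 passed with all 10 arrays.

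These genes, where a promoter was given, shared a short sequence in at least 1 promoter each. RefSeq (GRCm38.p6) gave 1 or more promoters for 15 of the 18, and a gene was counted if any of its promoters held the motif. CCAAT was read on either strand in the 250 bases before each start, and some promoters of Dhcr7 and Pmvk lacked it. By gene it was present in 15 of 15 (100%). It was present in 41% of the 8427 tested genes with a promoter and in 37.5% of all 27025. TCACNCCAC, 1 form of the sterol response element, was found in 1 of the 15, Hmgcs1, against 1.23% of tested genes. The 3 promoters below show how the motif is placed: near the start in the first 2, and in 3 copies beside the sterol element in the last. They are written 5′ to 3′ in the direction of the gene, ending just before the start, with every CCAAT (or its reverse, ATTGG) and TCACNCCAC in capitals. The Idi1 promoter is chr13:8885356-8885605 on the plus strand, that of Tm7sf2 is chr19:6067851-6068100 on the minus strand, and that of Hmgcs1 is chr13:119690101-119690350 on the plus strand.
Idi1: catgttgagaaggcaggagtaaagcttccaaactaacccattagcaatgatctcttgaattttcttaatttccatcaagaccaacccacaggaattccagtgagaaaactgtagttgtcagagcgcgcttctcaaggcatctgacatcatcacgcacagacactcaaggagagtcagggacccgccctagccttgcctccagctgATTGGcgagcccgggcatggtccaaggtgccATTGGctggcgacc
Tm7sf2: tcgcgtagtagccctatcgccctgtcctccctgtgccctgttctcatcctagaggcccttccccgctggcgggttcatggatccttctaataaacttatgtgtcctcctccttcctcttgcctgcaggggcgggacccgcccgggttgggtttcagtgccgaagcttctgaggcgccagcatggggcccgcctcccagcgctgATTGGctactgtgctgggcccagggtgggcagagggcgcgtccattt
Hmgcs1: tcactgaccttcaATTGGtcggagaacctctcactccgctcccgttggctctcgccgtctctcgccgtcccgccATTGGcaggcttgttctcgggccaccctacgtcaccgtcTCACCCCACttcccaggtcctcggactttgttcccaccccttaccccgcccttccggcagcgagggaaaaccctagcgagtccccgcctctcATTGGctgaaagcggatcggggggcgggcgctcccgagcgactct
A match is a description of these letters and not of bound factor.

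In the mevalonate arm, which ends at lanosterol, 10 enzymes were tested. Idi1, the isomerase of the isoprene units, read 11.58 and 11.30 at 1 µM against 13.22 and 13.18 at 5 µM, a difference of 1.76 ± 0.30 (limma adjusted p = 0.708). Fdps, farnesyl diphosphate synthase, read 12.36 and 10.79 against 13.53 and 12.86. Lss, which closes squalene epoxide into lanosterol, read 9.88 and 9.95 against 10.89 and 11.07, and Sqle, squalene epoxidase, read 10.91 and 10.67 against 11.48 and 11.73. Hmgcs1, the synthase at the head of the arm, was bright throughout, at 13.25 and 12.75 against 13.36 and 13.72. Ggps1, which makes geranylgeranyl diphosphate on a side branch, was the only 1 of the 10 whose doses overlapped. The arm's median was 0.97.

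After lanosterol the 8 tested enzymes had a median of 1.48, and 7 of them did not overlap (17.3% of all genes upward). Tm7sf2, a sterol C14 reductase, read 7.58 and 7.05 against 10.24 and 9.77, a difference of 2.70 ± 0.42 (limma adjusted p = 0.607). Nsdhl read 11.32 and 10.01 against 12.91 and 12.39, and Msmo1 read 12.79 and 11.78 against 13.98 and 13.79; both act in the removal of methyl groups from the sterol. Ebp, the sterol isomerase also known as a binding protein of tamoxifen, read 10.32 and 9.48 against 11.10 and 10.93. Dhcr7, the last reductase, overlapped, at 8.88 and 8.89 against 8.76 and 10.16.

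Against untreated cells the 1 µM arrays differed by -0.83 to 0.32 over the 18 enzymes. They were apart from the untreated arrays for 3 of the 18, near the 11.6% upward and 11.1% downward of all genes. The arm medians for 1 µM minus untreated were -0.03 and -0.15. Without 5 µM replicate 1 the medians for 5 µM minus 1 µM were 1.01 and 1.44, and without 1 µM replicate 2 they were 0.92 and 1.16. With both of these arrays left out the medians were 0.89 and 1.16, against 0.09 over all genes. The medians stayed positive in each setting, and the one after lanosterol was smaller without 1 µM replicate 2. The part of array quality in these values was not tested. In WT, 17 of the 18 enzymes were higher in both 5 µM arrays than in both untreated arrays and 1 was lower, where 37.3% of all genes were higher and 46.1% lower. The WT medians were 1.33 and 1.75.

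**Figure D2:**
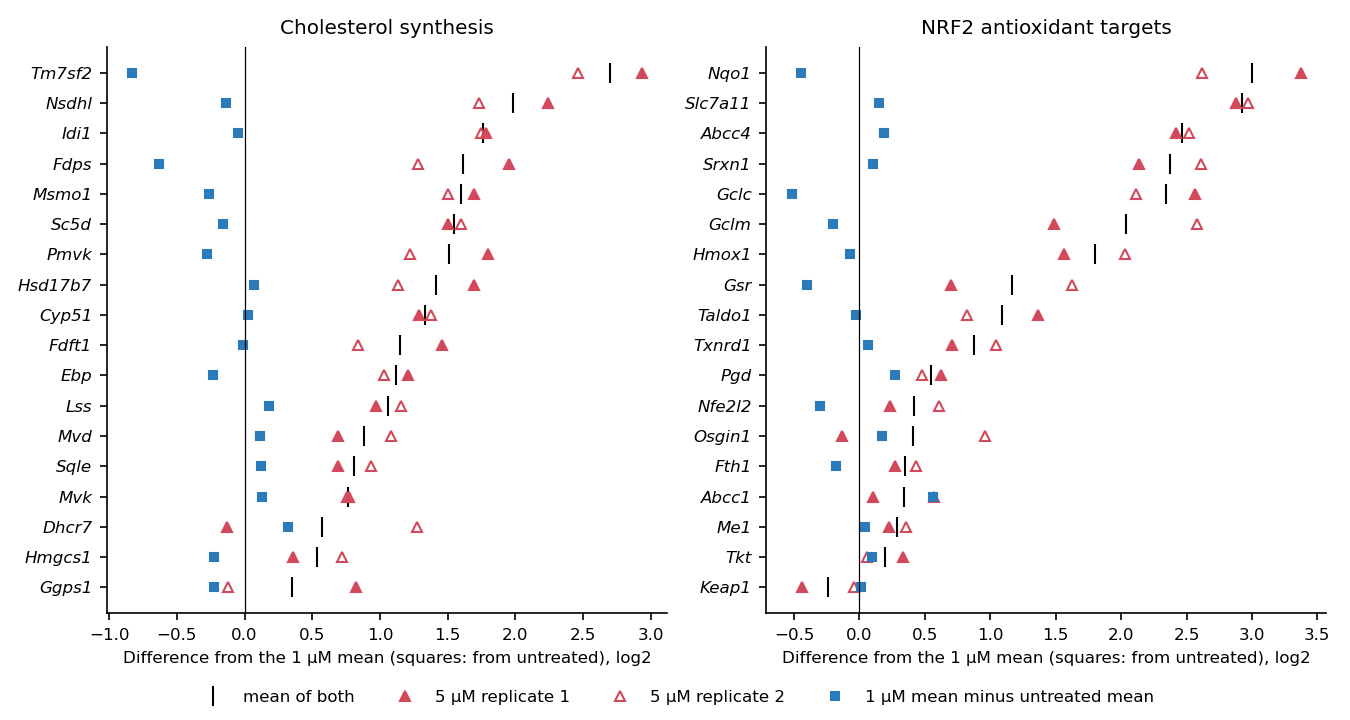
Differences on the log2 scale for the 18 cholesterol synthesis genes (left) and the 18 NRF2 targets (right): each 5 µM array minus the 1 µM mean (triangles), their mean (bars), and 1 µM minus untreated (squares). All 18 bars on the left and 17 of 18 on the right lie above 0, while the squares lie on both sides of 0.

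Regulators and neighbours of the sterol pathway varied more. Stard4, a cholesterol carrier, read 8.81 and 9.25 against 10.36 and 10.19. Srebf2, the SREBP gene most tied to cholesterol synthesis, read 9.13 and 8.99 against 9.45 and 10.08. Srebf1 and Insig1 overlapped; Insig1, which holds SREBPs in the endoplasmic reticulum, read 11.10 and 11.28 against 10.36 and 12.39. The 9 genes of SREBP control and uptake had a median of 0.40, which was 1.02 without 5 µM replicate 1. Fatty acid synthesis and desaturation had 13 of 14 genes positive (48% of all genes), 7 not overlapping upward (17.3%), and a median of 0.45, or 0.16 to 0.78 with 1 array left out. Scd1, the stearoyl-CoA desaturase, read 11.37 and 11.13 against 12.19 and 13.00. Of the 6 tested targets of LXR, the sterol-activated receptor that drives cholesterol efflux, 4 were negative, and the median was -0.43, or -0.11 without 1 µM replicate 2 and -0.27 without 5 µM replicate 1.

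NRF2 target genes were also higher at 5 µM. NRF2, encoded by Nfe2l2, is a transcription factor that KEAP1 marks for degradation until electrophiles or oxidants release it, and its targets make glutathione, reduce quinones and export conjugates. Of 18 tested genes, 17 were positive (48% of all genes), 13 did not overlap upward (17.3%) and 9 differed by at least 1 (4.51%). The median was 0.98.

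The enzymes and carriers of glutathione supply were among them. Slc7a11, the cystine importer subunit, read 3.18 and 2.62 at 1 µM against 5.78 and 5.87 at 5 µM, a difference of 2.92 ± 0.31 (limma adjusted p = 0.424). Gclc, the catalytic subunit of glutamate-cysteine ligase, read 8.76 and 8.23 against 11.06 and 10.61. Gclm, its modifier subunit, read 9.44 and 8.70 against 10.56 and 11.65. Gsr, glutathione reductase, read 8.20 and 7.19 against 8.39 and 9.32, the narrowest of these gaps.

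Detoxifying genes followed the same order of doses. Nqo1, a quinone reductase, read 8.27 and 8.50 against 11.76 and 11.01, a 7.99-fold difference (SE 0.36 on the log2 scale, limma adjusted p = 0.434). Abcc4, an efflux pump for organic anions, read 7.28 and 7.34 against 9.73 and 9.83. Srxn1, sulfiredoxin, read 10.37 and 9.44 against 12.04 and 12.52. Hmox1, heme oxygenase 1, read 12.84 and 10.85 against 13.41 and 13.88, and its 1 µM replicates were far apart. The regulators differed less: Nfe2l2 itself read 12.36 and 11.23 against 12.03 and 12.40, and Keap1 read 7.69 and 8.71 against 7.76 and 8.16, both overlapping.

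The median for 1 µM minus untreated was 0.03, and the 1 µM arrays were apart from the untreated ones for 4 of the 18 genes, near the 11.6% upward and 11.1% downward of all genes. The median for 5 µM minus 1 µM was 1.00 without 5 µM replicate 1 and 0.74 without 1 µM replicate 2, and 17 of 18 were positive in both. In WT 11 of the 18 genes were higher in both 5 µM arrays (37.3% of all genes) and 4 lower (46.1%). Their WT median was 0.12, against -0.08 over all genes. Nqo1 read 6.69 and 7.07 in untreated WT and 8.48 and 8.76 at 5 µM. Slc7a11 read 2.72 and 2.69 in untreated WT and 2.80 and 2.79 at 5 µM. Gclc read 9.88 and 10.27 against 9.32 and 9.28 there, and Abcc4 read 7.07 and 7.17 against 6.61 and 6.56. These 2 genes were lower in WT at 5 µM and higher in the CDKO line at 5 µM than at 1 µM. The WT arrays were compared with untreated cells and the CDKO arrays with 1 µM, and the difference between the lines was not tested.

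Of the 14 NRF2 targets with a RefSeq promoter, 4 (28.6%) held TGACNNNGC, the core of the antioxidant response element, against 13.9% of tested genes. They were Abcc4, Gclm, Txnrd1 and Nfe2l2, the last being the gene of NRF2 itself. Of the 15 cholesterol synthesis genes with a promoter, 3 (20%) held it. It was read on either strand within 250 bases of a start, and any promoter of a gene counted. CCAAT was present in 7 of the 14 (50%). The promoter of Gclm, chr3:122245307-122245556 on the plus strand, is shown as 1 of the 4; capitals mark CCAAT as ATTGG and the antioxidant core, here on the other strand.
Gclm: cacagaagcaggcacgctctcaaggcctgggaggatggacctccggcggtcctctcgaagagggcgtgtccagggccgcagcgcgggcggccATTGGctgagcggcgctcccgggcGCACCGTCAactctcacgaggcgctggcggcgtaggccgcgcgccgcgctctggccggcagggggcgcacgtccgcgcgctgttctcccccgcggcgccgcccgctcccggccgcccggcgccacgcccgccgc

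Related detoxification families were less uniform. Of 17 glutathione S-transferases, which join glutathione to electrophiles, 9 did not overlap upward (17.3% of all genes) and 3 downward (15.6%), with a median of 0.31, or 0.17 to 0.50 with 1 array left out. Gsta4 read 8.35 and 8.79 against 10.71 and 10.63, and Mgst1 read 10.36 and 9.74 against 11.83 and 11.75. Members of this family share sequence, so probe sets may read more than 1 of them. Among 10 drug efflux and anion transporters the median was 0.41; Slco4a1 read 7.30 and 8.21 against 9.76 and 9.82, and Abcb1a read 2.65 and 2.68 against 4.42 and 4.24. Cyp1b1, a target of the aryl hydrocarbon receptor, overlapped at 11.70 and 11.67 against 11.19 and 11.91, and the 5 tested genes of that list had a median of 0.61, or 0.15 without 1 µM replicate 1. Esr1, the estrogen receptor gene, read 9.34 and 8.85 against 9.40 and 9.90.

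Secreted inflammatory and senescence-associated factors were higher in most cases. Of 20 tested genes 15 were positive (48% of all genes), 10 did not overlap upward (17.3%) and 1 downward (15.6%), and the median was 0.70. Ccl2, a monocyte chemokine, read 12.42 and 10.13 against 12.61 and 13.21, and Il6 read 10.19 and 7.91 against 10.51 and 10.35. In both, and in Ccl8, another chemokine, 1 µM replicate 1 was near the 5 µM arrays and 1 µM replicate 2 was lower by over 2 units. Without 1 µM replicate 2 the list's median was 0.36. Interferon-stimulated genes, a list of 17 tested, had a median of -0.02, with 1 gene apart in each direction (17.3% and 15.6% of all genes), and medians of -0.46 to 0.48 with 1 array left out.

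Lysosomal and glycolytic genes leaned upward. Gpnmb, a lysosomal membrane glycoprotein, read 9.14 and 8.98 against 11.67 and 11.21, and Gla, a lysosomal galactosidase, read 9.79 and 8.63 against 11.77 and 11.22. Of 23 lysosome and autophagy genes 10 did not overlap upward (17.3% of all genes) and 0 downward (15.6%), with a median of 0.32, or 0.10 to 0.39 with 1 array left out. Among 21 hypoxia and glycolysis genes the counts were 11 (17.3% of all genes) and 0 (15.6%), with a median of 0.39, or 0.16 to 0.49 likewise. The unfolded protein and integrated stress response leaned the other way over the 4 arrays, with 22 of 26 genes negative and a median of -0.44. In this list 10 genes were apart downward (15.6% of all genes) and 2 upward (17.3%). Slc7a5, an amino acid transporter, read 9.98 and 11.20 against 7.59 and 9.11. Atf3, a stress transcription factor, was higher at 5 µM, at 5.69 and 6.61 against 8.17 and 7.70. The stress list's median was -0.14 without 5 µM replicate 1 and -0.17 without 1 µM replicate 2. With both of these arrays left out it was -0.03, with 13 genes higher and 13 lower, so the lean was not seen there.

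**Figure D3:**
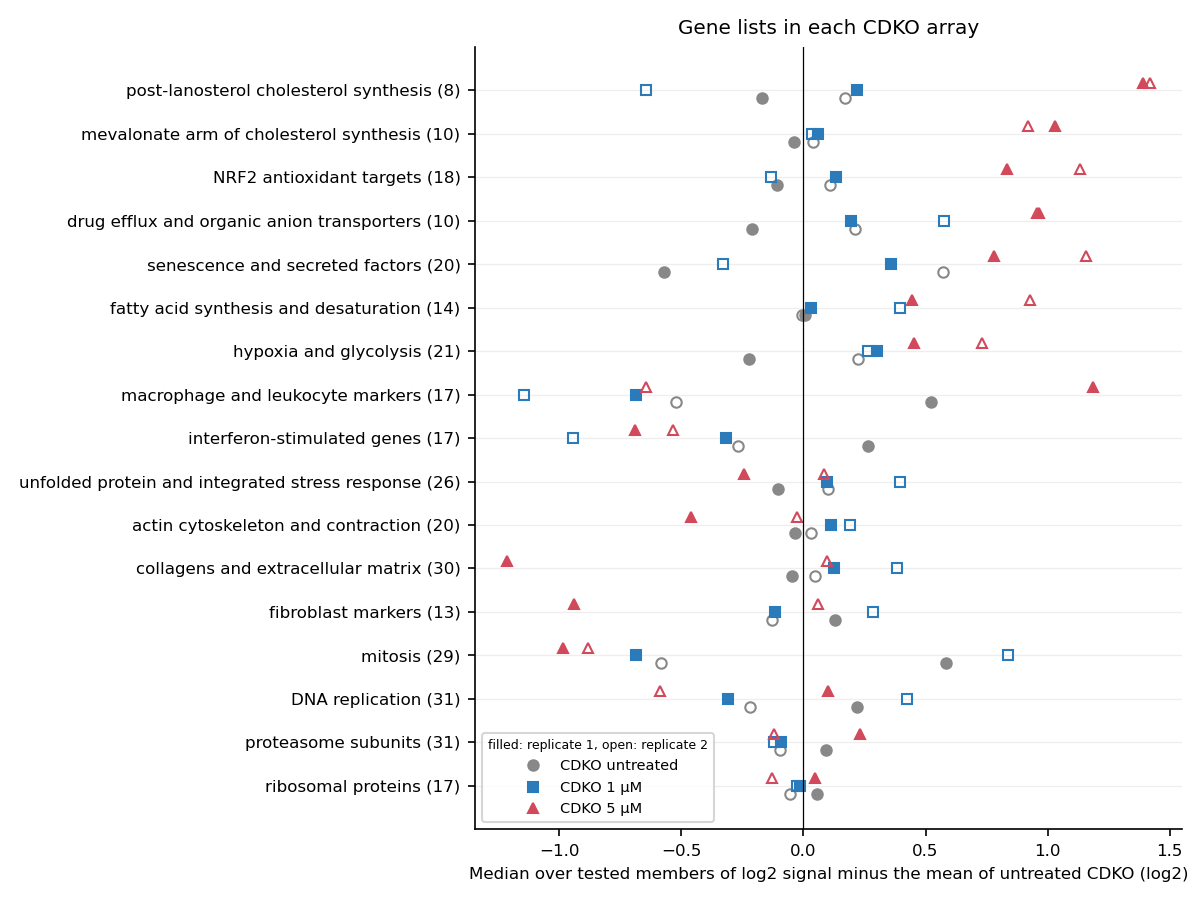
Median over the tested members (number in brackets) of each array's log2 signal minus the untreated CDKO mean, for 17 gene lists and 6 CDKO arrays. The 5 µM triangles of the cholesterol and NRF2 lists lie above the other points of their list, which is not particular to these lists. Both 5 µM medians were also above those of the other CDKO arrays for drug efflux, senescence, hypoxia and fatty acid genes. For macrophage and collagen lists the 5 µM replicates lie far apart. For mitosis both 5 µM triangles lie close together below the other points, and the replicates of the lower dose lie far apart.

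Mitotic genes were lower at 5 µM on average, but the 1 µM replicates disagreed. Of 29 tested genes 27 were negative, 17 did not overlap downward (15.6% of all genes) and 15 were lower by at least 1 (5%), with a median of -1.01. The array medians relative to untreated cells were -0.68 and 0.84 at 1 µM and -0.99 and -0.88 at 5 µM. The untreated arrays themselves were split at 0.58 and -0.58. Plk1, a mitotic kinase, read 7.21 and 8.61 at 1 µM against 5.54 and 6.72 at 5 µM. Kif2c, a mitotic kinesin, read 7.17 and 9.53 against 6.93 and 6.42, and Top2a, the topoisomerase of dividing cells, read 8.21 and 9.74 against 7.37 and 7.92. The high array was 1 µM replicate 2, the one with the raised 18S control and Gapdh ratio. Without it the median was -0.19 and 18 of 29 were negative, while the median over all genes was 0.10; without 1 µM replicate 1 the list's median was -1.79. In WT all 29 were lower at 5 µM than untreated (46.1% of all genes), with a median of -2.05. Both untreated WT arrays also had a raised 18S control, at 11.6 and 11.2 against 6.16 and 5.98 at 5 µM, and the part of these controls in the mitotic values was not tested. DNA replication genes had a median of -0.23, or -0.72 to 0.10 with 1 array left out, and the 31 tested members held 1 gene apart upward (17.3% of all genes) and 7 downward (15.6%).

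Collagen and matrix genes were lower at 5 µM mainly in replicate 1. Of 30 tested genes 28 were negative, 16 did not overlap downward (15.6% of all genes) and 13 were lower by at least 1, with a median of -0.89. Col6a2, a chain of type VI collagen, read 6.99 and 10.90 at 1 µM against 4.83 and 6.85 at 5 µM. Col3a1, a fibrillar collagen, read 13.99 and 14.44 against 11.03 and 13.37, and Col1a1 read 15.16 and 15.28 against 11.79 and 15.11. In Col1a1 the 5 µM replicate 2 lay at the level of the 1 µM arrays. The list's median was -1.56 for 5 µM replicate 1 against the 1 µM mean and -0.20 for replicate 2, where 21 of 30 were negative. Fibroblast markers moved with it: their median was -0.86, with -1.67 for replicate 1 and -0.11 for replicate 2. With 5 µM replicate 1 and 1 µM replicate 2 both left out, the matrix median was -0.09, with 8 genes higher and 22 lower. The fibroblast median was then 0.10, with 9 markers higher and 4 lower, so its sign rested on these arrays.

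Macrophage and leukocyte markers moved the opposite way in the same array. All 17 tested markers were positive, 8 did not overlap upward (17.3% of all genes), and the median was 1.23. The array medians relative to untreated cells were -0.69 and -1.14 at 1 µM and 1.19 and -0.64 at 5 µM. The untreated arrays themselves were split at 0.52 and -0.52. The summed signal of the list on the log2 scale was 11.7 and 11.1 at 1 µM and 13.7 and 12.0 at 5 µM. Ptprc, the pan-leukocyte protein CD45, read 3.19 and 3.15 against 6.08 and 3.04, and Cd68 read 5.73 and 4.52 against 9.15 and 7.05. Without 5 µM replicate 1 the median was 0.30 and 12 of 17 were positive. In such bulk arrays fewer cells of a type and less RNA per cell cannot be told apart. The part of these markers and of the spike-in level in the matrix result was not tested.

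**Figure D4:**
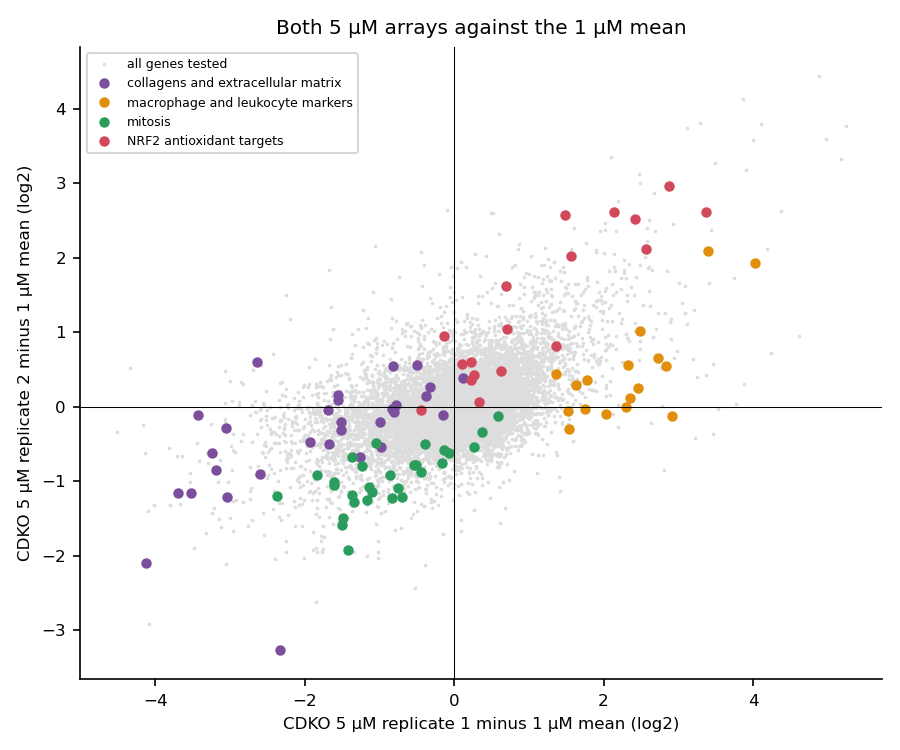
Each gene's difference from the 1 µM mean in 5 µM replicate 1 (horizontal) and replicate 2 (vertical), in log2 units, with 4 lists coloured over all 10321 genes in grey. The macrophage markers have a median of 2.32 horizontally and 0.30 vertically, with Cd53 and Cd68 the highest of them on the vertical axis at 2.10 and 1.93; most collagen genes lie to the left and most NRF2 targets lie above 0 on both axes, which share the 1 µM arrays.

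Cytoskeletal genes shared a downward sign. All 20 tested genes of actin and contraction were negative, 13 did not overlap (15.6% of all genes) and 5 were lower by at least 1, with a median of -0.40. Mylk, the myosin light chain kinase, read 9.20 and 10.84 against 8.48 and 8.64, and Cnn1, calponin, read 13.11 and 13.44 against 11.67 and 12.57. Acta2, smooth muscle actin, was nearly level at 15.25 and 15.14 against 15.04 and 15.13. Without 5 µM replicate 1 the median was -0.19 with 17 of 20 negative, and without 1 µM replicate 2 it was -0.41 with 20 of 20. Ribosomal protein and proteasome genes lay near 0, with medians of -0.02 and 0.11, or -0.06 to 0.06 and -0.01 to 0.37 with 1 array left out.

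The WT arrays share no sample with the CDKO dose comparison and were compared at 5 µM against untreated cells. They share a difference in quality controls with it: the 18S control read 11.6 and 11.2 in untreated WT and 6.16 and 5.98 at 5 µM, and the Gapdh 3′ probe set exceeded the 5′ one by 0.89 and 0.67 in untreated WT and by -0.10 in both 5 µM arrays. In CDKO the lower-dose array 1 µM replicate 2 had such values, and the part of this difference in the counts below was not tested. Of the 118 genes with an upward gap of at least 1 in CDKO, 98 were also higher in both WT 5 µM arrays than in both untreated WT arrays, 9 were lower and 11 overlapped. These WT counts set no minimum difference and no minimum level. Over all genes 37.3% were higher and 46.1% lower in WT, and 45.2% had a positive difference. The median WT difference of the 118 was 1.07, against -0.08 over all genes. Of the 10 with a downward gap, 8 were lower in WT, 1 was higher and 1 overlapped.

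Single genes ran with this count and against it. Mmp3 read 6.73 and 6.77 in untreated WT and 9.94 and 9.98 at 5 µM, and Serpinb2 read 2.83 and 2.96 against 6.27 and 6.32. Aspn read 10.07 and 10.40 against 7.01 and 7.05. Map7d2, at the top of the CDKO list, averaged 2.38 in untreated WT and 2.71 at 5 µM. Nrcam was lower in WT, at 4.15 and 4.39 against 3.99 and 3.65. Among the upper 15 genes 13 were higher and 2 lower in WT, and among the lower 15 genes 12 were lower, 1 higher and 2 overlapping. Of those counted as higher, Map7d2, Slc7a11, Slco1a5, Serpinb1b and Serpinb9g averaged under 4 in both WT groups. Slc7a11 read 2.72 and 2.69 in untreated WT against 2.80 and 2.79 at 5 µM, so very small differences near the floor also counted.

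**Figure D5:**
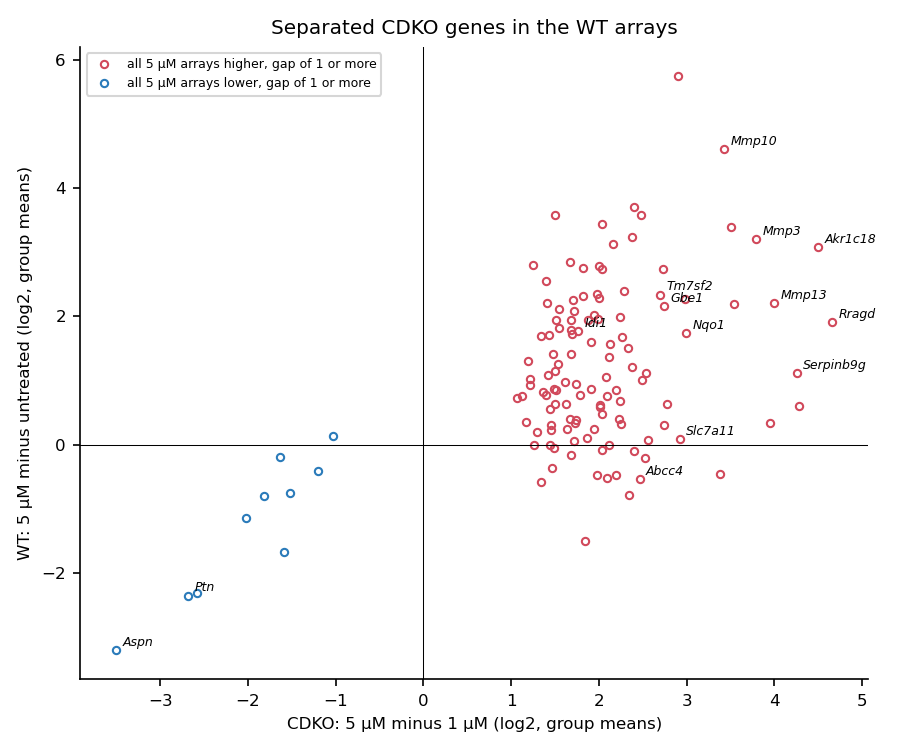
Difference of group means in CDKO (5 µM minus 1 µM, horizontal) and in WT (5 µM minus untreated, vertical), in log2 units, for the 118 genes with an upward gap of at least 1 in CDKO (red) and the 10 with a downward gap (blue). Most red points lie above 0 vertically, and Abcc4 is among those below.

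Few genes stepped evenly with the dose in the CDKO line. The 3 groups were ordered without overlap from untreated through 1 µM to 5 µM in 77 genes upward (0.746% of all genes) and 52 downward (0.504%). In 708 genes (6.86%) the 5 µM arrays lay above all 4 others while 1 µM overlapped untreated, and in 604 (5.85%) they lay below. In a further 601 genes (5.82%) the 1 µM arrays were below and in 504 (4.88%) above both other groups' nearest arrays. Mmp13 was of the former kind and Bcl11b of the latter. Adh7, an alcohol dehydrogenase, was among the stepwise genes, at 2.94 and 3.53 untreated, 4.49 and 4.78 at 1 µM, and 5.44 and 5.46 at 5 µM. A positive difference was seen for 48% of genes between the doses and for 46.5% with 5 µM replicate 2 alone. Without 1 µM replicate 2, 6279 genes were positive and 4042 negative, so the balance of directions changed with that array left out.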

How the data were processed

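Signals were deposited by the authors as log2 values after GCRMA, per the submitters' processing notes, without a version. Gene names came from the platform annotation. The 64 control probe sets were left out. Of the others, 34945 had 1 gene symbol, 932 several and 9160 none. limma 3.58.1 in R 4.3.3 was fitted to the 6 CDKO arrays as 3 group means, leaving 3 residual degrees of freedom, with Benjamini-Hochberg adjustment over 19563 probe sets and a threshold of 0.05; the minimum mean was 4. The script was tested on simulated data. SE is limma's. Titles gave the groups; 1 description field calls every array a knockout, and titles were followed. Named genes were up to 15 per direction past the threshold; as none passed, those with the largest gap were taken, and up to 4 per list. The comparison, the 37 gene lists and the promoter motifs were chosen with earlier results of these data known. Replicate numbers did not pair the samples (correlations of replicate differences -0.46 to 0.44). Promoters came from RefSeq; no genome was used here. The number of arrays limits the precision.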

Additional observations from a re-analysis of the deposited data

How the results depend on the processing

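With all 10 arrays 36 probe sets passed between the doses and 36 between 5 µM and untreated cells; with lines weighted 2 passed between the doses, and with no filter on low values 1 and 1. Every other alternative called 0 in these comparisons by limma, as did the 6-array fit, among them a minimum of 6, the 4 arrays alone, the spike-in level as a block, and each array left out (0 calls; 476 to 2861 unadjusted p under 0.05). Between 1 µM and untreated cells each alternative called 0. The replicate block called 0 (1468 unadjusted) between the doses. With replicate numbers crossed between untreated and 1 µM cells, whose replicate differences correlated at -0.46, 0 passed. With 1 of the 4 dose arrays left out, 12 of 37 list medians changed sign. That of skeletal muscle markers was larger than its spread at -0.21 and ranged from -0.31 to 0.15. The others, for which the full median was -0.23 to 0.11, were those of DNA replication, p53 target, interferon, TGF-beta, let-7, steroid receptor, proteasome, ribosomal, endothelial, epithelial and adipocyte genes. The causes were not tested. Of the other list medians recomputed, 75 moved by more than the spread and 331 did not. Counts without the arrays that stood apart were chosen after seeing the data. Depth is not defined for arrays; signals near the floor carry no detection call, which limits genes under 4.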

Other observations

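None of the members of the further gene groups given here passed the 6-array limma test. Among 16 ligands of the EGF receptor and feedback genes of the MAP kinase cascade, 12 were positive (48% of all genes), 7 did not overlap upward (17.3%) and 2 downward (15.6%), and the median was 0.36, or 0.21 to 0.62 with 1 array left out. Dusp5 and Dusp6, phosphatases that switch off ERK kinases, read 9.52 and 8.75 at 1 µM against 10.77 and 10.53 at 5 µM, and 9.98 and 9.53 against 10.78 and 10.99. Ereg, the ligand epiregulin, read 9.62 and 9.64 against 10.74 and 10.64. In the TGF-beta list of 25 genes 5 were apart upward and 4 downward, near the shares of all genes (17.3% and 15.6%), with a median of -0.05, or -0.27 to 0.26 with 1 array left out. Its ligands differed in sign: Tgfb3 read 11.39 and 11.93 against 9.58 and 10.64, while Bmp2 read 3.35 and 3.28 against 6.21 and 4.23.

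Cell cycle inhibitors differed in sign as well. Cdkn2a, which encodes p16 and p19ARF, read 9.13 and 8.48 against 10.73 and 9.38, while Cdkn1c, the inhibitor p57, had both 5 µM arrays below both 1 µM arrays and a difference of -0.83. The 24 p53 targets divided into 12 positive and 12 negative, with 5 apart in each direction, near the shares of all genes (17.3% upward and 15.6% downward), and a median of 0.07, or -0.13 to 0.24 with 1 array left out. Of these, Bbc3, the cell death protein PUMA, read 8.23 and 8.55 against 6.33 and 7.60. The 14 tested targets of the let-7 microRNA had a median of -0.06, or -0.20 to 0.14 with 1 array left out, with 7 positive and 7 negative; Hmga2, a chromatin protein and a known let-7 target, read 12.96 and 12.66 against 13.71 and 13.05. Of 7 neural and glial markers all were negative and 4 were apart downward (15.6% of all genes), and the median was -0.72, or -1.33 to -0.40 with 1 array left out; Tubb3, a neuronal tubulin, read 8.70 and 8.74 against 7.02 and 7.81.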
